A study of Mus musculus with 2 samples.

Results

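Interferon-stimulated genes are the transcripts that cells make more of when type I or type II interferon reaches them, and 41 of them were followed here among the 27579 genes that had a usable probe on a whole mouse genome array. The 41 are named IFIT proteins, oligoadenylate synthetases, the ISG15 system, further antiviral effectors, nucleic acid sensors, transcription factors of the pathway, interferon-inducible GTPases and a few other induced genes. They were selected with the ratios of these same arrays already known, so their ratios are given as a description and carry no test. A probe of the array counted for a member when the gene name in the array file was the member's name, and 37 of the 41 had such a probe. Dhx58, Irf9, Irgm1 and Xaf1 had none.

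The RNA came from mouse embryonic fibroblasts (MEFs), connective tissue cells grown from embryos of C57BL/6J mice, with the genotypes LATS2-/- (KO) and LATS2+/+ (WT). Lats2 is a kinase of the Hippo pathway, which restrains the growth regulators Yap and Taz. The cells of both genotypes had no treatment, and no interferon was added. The age of the embryos, the kind of Lats2 allele and the number of embryos behind each RNA are not given in the labels. Each array carried both RNAs, labelled with the dyes Cy5 and Cy3 and hybridised together. One array had KO in Cy5 and WT in Cy3, and the other had the dyes exchanged. Both arrays lay on 1 slide with 1 scan time. The labels name no replicate beyond the exchange of dyes, so the 2 arrays were counted as 1 replicate of each genotype, and the differences below have no biological replicate check. The SD of a single probe's log2 ratio between the arrays was 0.132, the SD of a mean over both was 0.0935, and Pearson's r between the arrays was 0.899 across 40875 probes. These errors cover hybridisation and dye, and the number of arrays limits the precision of every value.

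Lats2 itself did not follow the labels. Of 4 Lats2 probes on chromosome 14 (mm8 build), 3 gave higher values for KO, with mean log2 ratios of 0.56, 0.56 and 0.63, and the probe at 56676512 to 56676571 gave -0.35. Which of these probes lie in a deleted part of the gene is not given in the sources used here. For that reason the samples are named KO-labelled RNA and WT-labelled RNA, and every direction below rests on the labels. Ratios are log2 of the KO-labelled RNA over the WT-labelled RNA. "Lower" and "higher" refer to the KO-labelled RNA.

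Interferons are secreted proteins released by cells that sense viral nucleic acid. Type I interferons bind the receptor made of Ifnar1 and Ifnar2, and type II interferon binds that made of Ifngr1 and Ifngr2. The JAK kinases on these receptors phosphorylate STAT proteins. Stat2 and Irf9 are subunits of the complex that binds the interferon-stimulated response element (ISRE), and STAT dimers bind the gamma-activated site (GAS). Fibroblasts are a classical responder cell, and they also hold a low tonic level of many of these transcripts without added interferon.

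Most of the members had lower values in the KO-labelled RNA. A gene was called when its brightest probe differed at least 2-fold, one way on both arrays, and was well above background, by the scanner software's flag, on both arrays in the RNA where it was higher. By this rule 11 members were lower (Ifi27, Usp18, Ifit1, Bst2, Stat2, Parp14, Igtp, Oasl2, Parp9, Gbp3 and Ifit3) and 1 was higher (Isg20). Over all 27579 genes the same rule called 414 lower (1.50%) and 469 higher (1.70%), and of the 15877 genes well above background in at least 1 RNA it called 2.61% lower and 2.95% higher. The members were picked with these calls known, so nothing is read from that contrast. The sizes ran from 2.03-fold for Ifit3 to 27.4-fold for Ifi27. The median log2 ratio of the 37 members was -0.39, beside -0.00033 over all genes, and it was -0.60 over the 32 members well above background in at least 1 RNA. On both arrays 25 of the 37 were below 0 and 5 were above 0. Among all genes 32.6% were below and 32.4% above on both arrays. Among the 15877 genes well above background in at least 1 RNA these shares were 41.4% and 40.2%. As each library is bulk RNA, fewer cells of a type and less RNA per cell cannot be told apart.

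**Figure D1:**
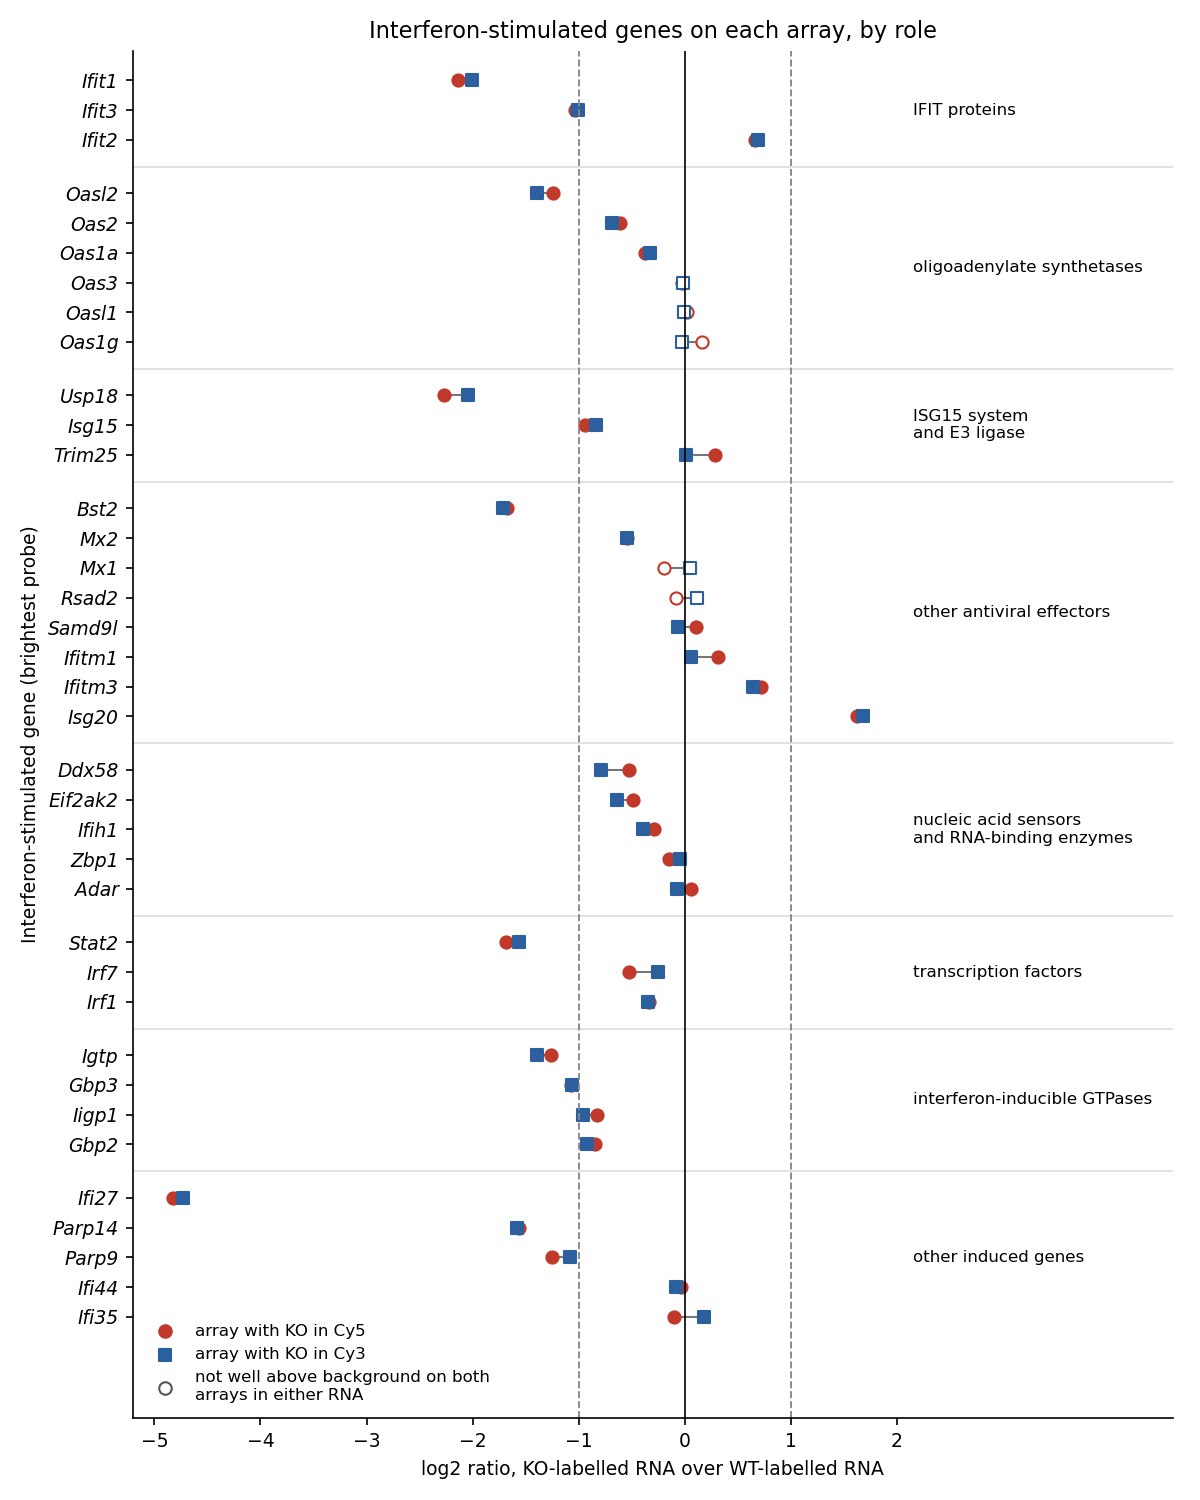
The log2 ratio of the KO-labelled RNA over the WT-labelled RNA (x axis) is drawn for the 37 interferon-stimulated genes with a probe, grouped by role. Circles are the array with KO in Cy5 and squares that with KO in Cy3, open symbols mark genes not well above background on both arrays in either RNA, and dashed lines mark the 2-fold call. The 11 genes called lower lie left of -1 on both arrays, Ifi27 lies near -4.8, and Isg20 is the only gene right of 1.

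The count depended on the processing. With the scanner software's own ratio, which adds no offset to the intensities, 19 members were lower and 1 was higher, and the deposited log2 table gave the same 19 genes. With median centring in place of loess, 4 were lower. The genes lost kept their mean ratios, as shown by Bst2 (-1.66 against -1.69) and Stat2 (-1.59 against -1.62), but each fell short of 2-fold on the array with KO in Cy5. The study's threshold on a t-test over the 2 arrays kept 11 lower, and 0 passed after Benjamini-Hochberg adjustment.

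The promoters of the genes that differed are shown because the pathway acts through them. RefSeq promoters (GRCm38.p6, 250 bases before to 50 bases after the gene's start) were at hand for 31 of the 41 members. The other members were Oas2, Usp18, Mx1, Mx2, Dhx58, Zbp1, Iigp1, Ifi27, Parp9 and Parp14. The ISRE core was searched as GAAANNGAAA and, for the other strand, TTTCNNTTTC. It was found in 17 of the 31 members (54.8%), and in 3.99% of all 27025 genes with a promoter. The GAS, searched as TTCNNNGAA, which reads the same on both strands, was found in 10 of the 31 members (32.3%) and in 9.55% of all genes. Of the 7 members called lower with a promoter, 6 held the ISRE core. Of the 25 members with a probe that were not called, 20 had a promoter, and 10 of these held the core. The GAS was in 2 of the 7 called lower and in 7 of the 20 not called. In a wider list of interferon-stimulated genes, described below, 58 had a promoter. Of these, 23 (39.7%) held the core and 8 (13.8%) the GAS. These shares describe letters in a window and not binding, and a member without a match may hold the element elsewhere. The promoters of 7 members follow, 5′ to 3′ on the gene's strand, with ISRE core matches in capitals. Ifit1 and Ifit3 are neighbours of Ifit2 with opposite ratios, Bst2 and Stat2 are the bright members called lower, Isg15 fell just short of the call, and Isg20 was the member called higher.
Ifit1 (chr19:34640639-34640938, plus strand): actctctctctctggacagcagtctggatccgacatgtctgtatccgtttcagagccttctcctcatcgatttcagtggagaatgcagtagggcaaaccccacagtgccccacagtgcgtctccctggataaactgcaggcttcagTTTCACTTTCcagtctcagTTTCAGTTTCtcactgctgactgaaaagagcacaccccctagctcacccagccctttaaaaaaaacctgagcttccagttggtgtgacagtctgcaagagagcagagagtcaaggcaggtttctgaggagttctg
Ifit3 (chr19:34583279-34583578, plus strand): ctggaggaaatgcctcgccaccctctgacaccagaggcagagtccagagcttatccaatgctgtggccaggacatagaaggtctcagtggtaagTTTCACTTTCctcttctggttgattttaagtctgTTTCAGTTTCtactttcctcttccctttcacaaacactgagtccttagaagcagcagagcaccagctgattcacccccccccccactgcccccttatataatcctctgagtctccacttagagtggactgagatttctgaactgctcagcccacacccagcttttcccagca
Ifit2 (chr19:34550444-34550743, plus strand): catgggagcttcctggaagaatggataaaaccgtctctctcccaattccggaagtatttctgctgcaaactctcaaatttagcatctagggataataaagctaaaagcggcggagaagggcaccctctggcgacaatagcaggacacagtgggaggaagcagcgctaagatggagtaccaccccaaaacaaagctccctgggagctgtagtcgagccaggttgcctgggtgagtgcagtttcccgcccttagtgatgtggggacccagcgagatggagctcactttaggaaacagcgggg
Bst2 (chr8:71537423-71537722, minus strand): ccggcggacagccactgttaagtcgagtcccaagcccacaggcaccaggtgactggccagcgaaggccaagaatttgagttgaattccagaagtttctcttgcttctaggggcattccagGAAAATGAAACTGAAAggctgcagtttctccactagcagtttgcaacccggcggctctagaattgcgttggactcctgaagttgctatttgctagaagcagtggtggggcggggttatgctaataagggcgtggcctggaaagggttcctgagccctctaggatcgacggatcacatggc
Stat2 (chr10:128270248-128270547, plus strand): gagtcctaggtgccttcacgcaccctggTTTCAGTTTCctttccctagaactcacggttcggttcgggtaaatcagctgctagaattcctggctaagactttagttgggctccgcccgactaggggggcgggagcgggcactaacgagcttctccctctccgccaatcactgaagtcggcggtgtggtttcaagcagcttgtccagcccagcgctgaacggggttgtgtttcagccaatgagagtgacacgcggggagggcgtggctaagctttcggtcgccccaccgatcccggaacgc
Isg15 (chr4:156200769-156201068, minus strand): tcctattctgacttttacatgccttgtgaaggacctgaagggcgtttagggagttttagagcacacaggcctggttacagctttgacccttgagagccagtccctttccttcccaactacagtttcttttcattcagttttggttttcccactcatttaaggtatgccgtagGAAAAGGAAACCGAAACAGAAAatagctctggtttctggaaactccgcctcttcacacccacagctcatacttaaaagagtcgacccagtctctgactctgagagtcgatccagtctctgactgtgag
Isg20 (chr7:78913174-78913473, plus strand): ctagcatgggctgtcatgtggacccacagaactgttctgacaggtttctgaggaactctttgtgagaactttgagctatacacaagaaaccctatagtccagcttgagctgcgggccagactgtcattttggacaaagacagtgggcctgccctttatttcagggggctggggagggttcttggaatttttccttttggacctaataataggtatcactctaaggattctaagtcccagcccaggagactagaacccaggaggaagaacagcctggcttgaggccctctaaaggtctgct
The Ifit1 cores begin 104 and 85 bases before the start and those of Ifit3 156 and 122 bases before it. Bst2 has 2 overlapping cores, 130 and 124 bases before the start, and Isg15 has 3 between 78 and 66 bases before it. Stat2 has 1, 222 bases before the start. No core was found in the windows of Ifit2 or Isg20, for which RefSeq has 2 and 3 starts. A GAS match lay in 1 start of each of these 2 genes and in Bst2, where it overlapped an ISRE core.

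IFIT proteins bind viral RNA and block its translation. Their 3 genes lie together on chromosome 19, within 73.6 kb between the probes (34641751 to 34715362, mm8 build), and they did not share a direction. Ifit1 had normalised intensities of 84.7 on the array with KO in Cy5 and 105 on the array with KO in Cy3 in the KO-labelled RNA, against 372 and 421 in the WT-labelled RNA. Its log2 ratios were -2.14 and -2.00, a mean of -2.07 or 4.20-fold. Ifit3, an IFIT partner protein, had 431 and 456 against 885 and 916, with ratios of -1.04 and -1.01. That places Ifit3 just inside the 2-fold call. Ifit2 had 518 and 492 in the KO-labelled RNA against 326 and 305, so its mean ratio was 0.68, and its dimmer probe gave 0.53. The Ifit2 intensities were higher in the KO-labelled RNA on both arrays by both probes, but below the call.

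Oligoadenylate synthetases make the messenger that switches on RNase L, which then cuts viral and cellular RNA. Of their 6 genes, 1 was called lower and none higher. Oasl2, a synthetase-like protein, had intensities of 78.6 and 89.0 in the KO-labelled RNA and 186 and 234 in the WT-labelled RNA, and ratios of -1.24 and -1.39. The signals of the KO-labelled RNA were low but well above background on both arrays. Oas2 and Oas1a were well above background in the WT-labelled RNA but not in the KO-labelled RNA, so for them only a bound is given. By its brightest probe Oas2 was at least 1.56-fold lower, and Oas1a was at least 1.28-fold lower. For each array the bound took the level in the brighter RNA. It was set against the higher of the dim probe's own level and the lowest level well above background. Both genes were called lower by the scanner software's own ratio, at -3.02 for Oas2 and -2.92 for Oas1a, and Oas2 also with an offset of 10 (-1.36). The second Oas2 probe had a ratio of 0.02 and was not well above background in either RNA. For Oas1g, Oas3 and Oasl1 neither RNA gave a signal well above background.

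The ISG15 system attaches the ubiquitin-like protein Isg15 to other proteins. Usp18 removes Isg15 from them and also holds back signalling at the type I receptor. Usp18 on chromosome 6 (121236114 to 121236173) had intensities of 107 and 131 in the KO-labelled RNA and 515 and 540.1 in the WT-labelled RNA. Its ratios of -2.27 and -2.04 gave a mean of -2.16, or 4.46-fold, and the values of the 2 RNAs were far apart on both arrays. Isg15 had 70.7 and 95.4 against 135 and 171, ratios of -0.94 and -0.84, and was not called. It was called lower by the scanner software's own ratio (-2.30), with an offset of 10 (-1.48) and without background subtraction (-1.12). The array file places this probe on chromosome 17 while the promoter table has Isg15 on chromosome 4, and the placement was not resolved here. Trim25, an E3 ligase that acts on the sensor Rig-I, had a mean ratio of 0.15 by its brightest probe and -0.26 by the other.

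Among 8 other antiviral effectors 1 gene was called lower and 1 higher. Bst2 (tetherin) holds budding virus particles on the cell surface. It had 1340.3 and 1316 in the KO-labelled RNA and 4279.9 and 4316 in the WT-labelled RNA, with ratios of -1.68 and -1.71 and a mean of -1.69, or 3.24-fold. Bst2 was bright in both RNAs, and its mean ratio moved little with the processing (-1.73 to -1.66). With median centring, however, its ratios were -0.80 and -2.52 on the 2 arrays, and it was not called. Isg20, an exonuclease that degrades RNA, ran the other way. It had 565 and 524 in the KO-labelled RNA against 183 and 164, with ratios of 1.63 and 1.68. A second Isg20 probe gave 1.14 and was also called, so both probes of this gene were higher. Ifitm3, which hampers virus entry at membranes, had 8009 and 8426 against 4855 and 5396, a mean ratio of 0.68 that missed the call. Its relative Ifitm1 had a ratio of 0.19. The Mx proteins are dynamin-like GTPases that trap viral nucleocapsids. Mx2 had a ratio of -0.55 (-1.65 and called lower by the scanner software's own ratio), and Mx1 was not well above background. Samd9l was at 0.02. Rsad2 (viperin) was well above background on only 1 of the 2 arrays in each RNA, and its probes ranged from -0.02 to 0.06.

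None of the sensors and RNA-binding enzymes was called, but 4 of the 5 with a probe were below 0 on both arrays. Ddx58 encodes Rig-I, a sensor of viral RNA in the cytoplasm. It had 254 and 223 in the KO-labelled RNA against 367 and 386, a mean ratio of -0.66. Ifih1 (Mda5), a second such sensor, had a ratio of -0.34, and Eif2ak2 (PKR), which halts translation on double-stranded RNA, had -0.56. All 3 lay between 0 and the call on both arrays. Zbp1 was not well above background in the KO-labelled RNA. Its mean ratio was -0.10, close in size to the SD of a mean over both arrays (0.0935). By the scanner software's own ratio Zbp1 was at -1.37 and was called lower. The probes of Adar, which edits adenosine in double-stranded RNA, disagreed, with -0.01 by the brighter and -0.71 by the other. Dhx58 (Lgp2) appears on the array under an older name, D11Lgp2e. The probe whose accession belongs to Dhx58 had a ratio of -0.31.

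Stat2 was the transcription factor that stood out. Its single probe on chromosome 10 (127695074 to 127695133) had 1355 and 1466 in the KO-labelled RNA and 4358 and 4318 in the WT-labelled RNA. The ratios were -1.69 and -1.56, a mean of -1.62 or 3.08-fold. Irf1, a factor that type II interferon induces strongly, had -0.34 and Irf7, which amplifies the production of type I interferon, had -0.39, both below 0 on both arrays and neither called. By the scanner software's own ratio Irf7 was at -1.30 and was called lower. Irf9, the partner of Stat2, is on the array under its older name Isgf3g, and 2 probes with an Irf9 accession gave -0.65 and -0.20. Both Irf9 probes were below 0 on each array, and neither was called.

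**Figure D2:**
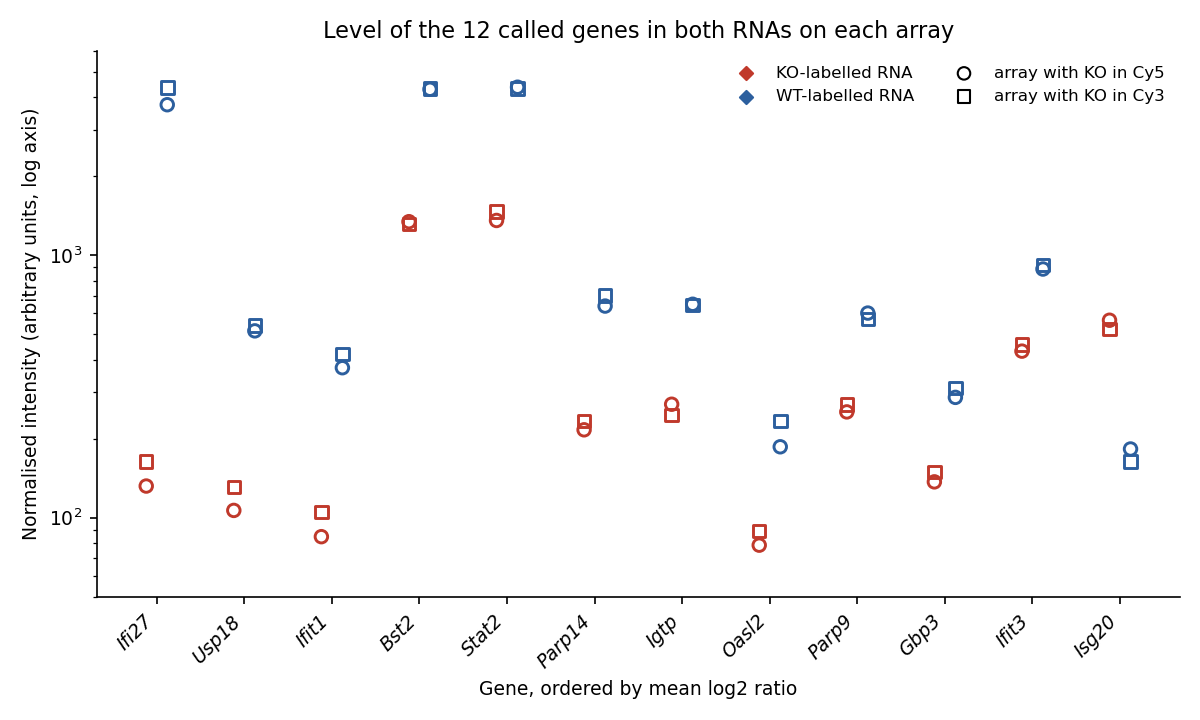
The normalised intensity (y axis, arbitrary units, log axis) of the 12 called genes is drawn in the KO-labelled RNA (red) and the WT-labelled RNA (blue) on the array with KO in Cy5 (circles) and that with KO in Cy3 (squares). The 2 values of an RNA lie close together. The RNAs are apart for all 12, which is largely fixed by the 2-fold call on each array. Levels should be compared within a gene and not between genes, as each probe has its own brightness.

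Interferon-inducible GTPases attack the vacuoles that shelter intracellular microbes. All 4 with a probe of their name were lower on both arrays, from -0.89 to -1.33, and 2 were called. Igtp (Irgm3) had 270.4 and 246 in the KO-labelled RNA and 649.8 and 647 in the WT-labelled RNA, with ratios of -1.26 and -1.40. Gbp3, a guanylate-binding protein, had 137 and 149 against 287 and 312, with ratios of -1.07 on each array. Gbp2 and Iigp1 sat just outside the threshold. The intensities of Gbp2 were 236 and 252 against 425 and 479 (mean ratio -0.89), and those of Iigp1 were 88.7 and 88.4 against 157 and 172 (mean ratio -0.89). With the scanner software's own ratio and with an offset of 10 both genes were called lower. Irgm1, listed on the array as Irgm, went the other way. Its 2 probes matched by accession gave 0.54 and 0.59 and were bright in both RNAs.

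Ifi27 had the lowest ratio of any member and the third lowest of all 27579 genes. It encodes a small hydrophobic protein that interferon induces strongly. The accession of its brightest probe on chromosome 12 (103843234 to 103843293) belongs to Ifi27l2a in the reference table of mouse genes. Intensities were 132 and 164 in the KO-labelled RNA and 3738 and 4345 in the WT-labelled RNA, and the ratios -4.82 and -4.73 (mean -4.78, 27.4-fold). Its other 2 probes had ratios of -4.54 and -3.23, so all 3 were called lower. Parp14 and Parp9, ADP-ribosyltransferases whose genes lie within 139.4 kb on chromosome 16, were both called lower. Parp9 had 253 and 270.1 against 601 and 569.8, with a mean ratio of -1.16. Parp14 had 216 and 233 against 639.6 and 700.4 by its brightest probe, with a mean ratio of -1.58. Its 2 dimmer probes gave -0.33 and -0.07, and the mean over its 3 probes, -0.66, was not called. Parp14 was the only member whose probes differed in call, of 14 members with several probes. Ifi35 and Ifi44 had ratios of 0.04 and -0.06.

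**Figure D3:**
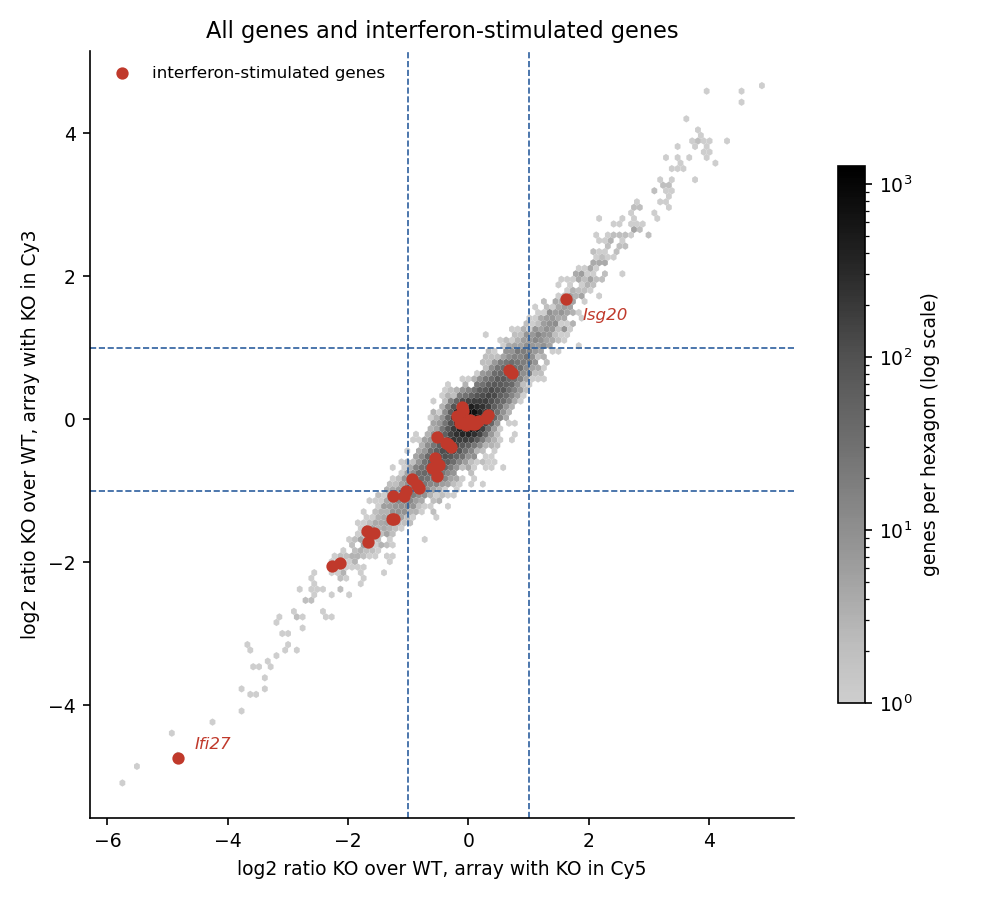
The log2 ratio of each of the 27579 genes on the array with KO in Cy5 (x axis) is set against that on the array with KO in Cy3 (y axis), with grey hexagons shaded by the number of genes and the 37 members in red. Dashed lines mark the 2-fold call. The members follow the diagonal, 11 of them lie in the lower left corner beyond both lines, and Ifi27 is close to the lower end of the whole cloud.

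After loess the members differed little between the arrays. Between the 2 orientations of the dyes the ratio of a called member moved by at most 0.23 on the log2 scale, and that of any of the 37 by at most 0.28. With median centring, which removes no dye effect that varies with intensity, the ratios of the 12 called members differed between the arrays by 0.66 to 1.72. The members not called ran from -0.89 (Iigp1) to 0.68 (Ifitm3). On the lower side Iigp1, Isg15 and Gbp2 came closest to the threshold, and Gbp3 and Ifit3 were just inside it.

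The genes upstream of the members were examined next, from lists that were also written with earlier results known. Of 14 interferon genes with a probe, none was called, and 4 were well above background. Ifnb1, the type I interferon that fibroblasts make first, had 61.8 and 61.0 in the KO-labelled RNA against 58.5 and 62.7 and was not well above background in either RNA. Ifng was likewise not well above background. Ifnz, a type I interferon of mice, had the lowest ratio of the list at -0.36. No call on the amount of interferon protein can be made from these values.

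The receptors and JAK-STAT genes did not follow the members. Of 11 with a probe none was called lower and 1 higher, and the median ratio was 0.26. Il10rb, a receptor chain shared by interleukin-10 and type III interferon, had 3042 and 2852 in the KO-labelled RNA against 1326 and 1349, a ratio of 1.14. Of its 2 probes 1 was called. Ifngr2 had 2941 and 2821 against 1455 and 1486, a ratio of 0.97, and Ifnar1 had 878 and 794 against 420.3 and 478, a ratio of 0.90. Both receptor chains were higher on each array but passed 2-fold on only 1. Ifnar2 had a ratio of 0.58. These 4 receptor genes are neighbours within 170.0 kb of chromosome 16 (91282658 to 91452655), and all 4 were above 0 on both arrays. Ifngr1, on chromosome 10, had a ratio of -0.07. The kinases that the receptors use gave -0.09 for Jak1, -0.60 for Jak2 and 0.34 for Tyk2.

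Among the 19 genes for the induction of interferon none was called, with a median of 0.02. Irf5, a factor that drives inflammatory genes, had a mean ratio of 1.02 but reached 0.97 on the array with KO in Cy5. Ikbke, a kinase upstream of Irf3 and Irf7, had 0.71. Tlr4, the receptor for bacterial lipopolysaccharide, had -0.62, and the adaptor Mavs, listed under an older name, had -0.44. Irf3 and Cgas, which act on either side of the adaptor Sting, had -0.02 and 0.02. Of the 18 negative regulators none was called, and their median was -0.28. Socs1 and Socs3, feedback inhibitors that STAT proteins themselves induce, had -0.63 and -0.71. Both lay below 0 on each array. Over the list 13 were below 0 on both arrays and 3 were above, with Nlrc3 the highest at 0.75.

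A wider list of 70 further interferon-stimulated genes had a median ratio of -0.05 over the 63 with a probe. Of these, none was called lower and 5 were called higher, beside 1.50% and 1.70% of all genes. The wider list leaves out the members, and both were chosen with earlier results known, so nothing is read from their contrast. Tgtp1, a GTPase of the same family as Igtp, had 2378 and 2292 in the KO-labelled RNA against 445 and 448, a ratio of 2.39 or 5.23-fold. These are the values of its brightest probe, and only 1 of its 2 probes was called. Plscr2 (1.46) and Plscr1 (1.15, with 2 of 3 probes called), neighbouring phospholipid scramblase genes, were also higher. So were Lgals9, a galectin, at 1.41 and Casp12, a caspase, at 1.28. The lowest ratio was that of Nmi, which binds STAT proteins, with -0.95 and -1.13 on the single arrays, just short of the call. Several others lay between 0 and the call on the lower side, among them Zc3hav1 (-0.84), an antiviral RNA-binding protein, and Parp12 (-0.71). With the scanner software's own ratio 4 of the list were lower.

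**Figure D4:**
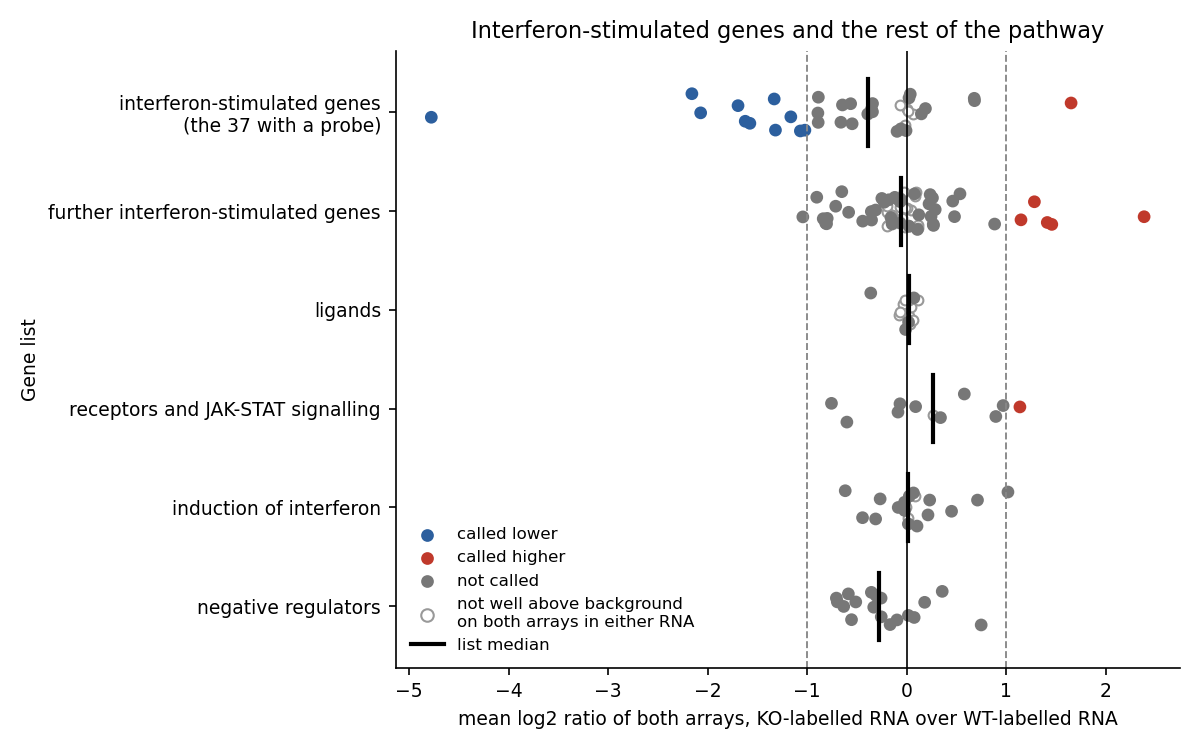
The mean log2 ratio of both arrays (x axis) is drawn for every gene with a probe in the interferon-stimulated genes and in 5 lists of the rest of the pathway. Blue points were called lower, red points higher and grey points neither, open points were not well above background on both arrays in either RNA, and black bars are medians. The 11 blue points are all among the 37 members, and the receptor list has its median at 0.26. All lists were chosen with earlier results known, and that of further interferon-stimulated genes leaves out the members.

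Neighbouring GTPase genes on chromosome 11 also differed from the members elsewhere. Tgtp1 and Ifi47 lie within 110.1 kb of each other (48830094 to 48940153) and had ratios of 2.39 and 0.54. Igtp, at 58023620 to 58023679 of the same chromosome, had -1.33. By the brightest probes the family was thus split in direction on this chromosome. Guanylate-binding protein genes on chromosome 3 lie within 116.0 kb and ran from -1.07 for Gbp3 to 0.12 for Gbp5, which was dim. These neighbourhoods were noticed in the values and carry no test.

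The cell type of the samples was checked by marker genes. In at least 1 RNA, all 14 fibroblast markers with a probe were well above background. Their summed level was 183544 and 172075 in the KO-labelled RNA and 235268 and 238807 in the WT-labelled RNA. On both arrays 10 of the 14 were below 0, and 2 were above 0, Fn1 (0.89) and Lum (0.16). Only Col6a1, a collagen chain, was called, and it was lower (-1.31). Vim was dim, at 74.8 and 79.2 against 130 and 156, and in the KO-labelled RNA it was well above background on 1 array. Immune cells, which carry high levels of many of the members, left little signal. Of 15 macrophage and monocyte markers 4 were well above background (Csf1r, Cd68, Cd14 and Lyz2), and these 4 summed to 1618 and 1639 in the KO-labelled RNA against 1113 and 1130.0. The defining markers Ptprc, Adgre1 and Fcgr1 were in neither RNA well above background. Lyz2, at 1292 and 1278 against 600.0 and 595, held the excess (ratio 1.10, called higher), though only 1 of its 3 probes was called. Cd14 was called lower (-1.05). Of 14 lymphocyte and plasmacytoid markers 2 were well above background, with sums of 201 and 187 against 179.5 and 181. Endothelial markers numbered 3 well above background of 9, summing to 7865 and 9145 against 4336 and 3916. The difference was that of Flt1, a growth factor receptor (7559 and 8841 against 3968 and 3509, ratio 1.13). Its brightest probe was not called, but 2 of its 5 probes were called higher. Egfl7 had -0.56 and Eng 0.01, and Pecam1 and Cdh5 were not well above background. Of 10 epithelial markers 4 were well above background, summing to 633 and 578 against 357 and 362. Krt19, at 386 and 312 against 91.0 and 70.4, was higher (2.12), the other 3 lay between -0.32 and 0.01, and Epcam and Cdh1 were not well above background. The part of these lists in the lower values of the members was not tested.

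The size of a ratio for a dim gene depended on the offset of the background step. Ifit1 had a mean ratio of -2.07 with the offset of 50 and -3.97 by the scanner software's own ratio. Oasl2 moved from -1.32 to -3.04, Usp18 from -2.16 to -3.24 and Ifi27 from -4.78 to -5.63. The means of bright genes moved little, as shown by Stat2 at -1.62 and -1.66. With median centring Stat2 was at -0.81 and -2.36 on the 2 arrays and was not called. The 12 called members kept their direction under all 8 alternatives that gave each gene a value. Not all of these are separate checks. The call itself fixed the direction on each array alone, and for these genes the deposited table repeats the software's ratio.

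**Figure D5:**
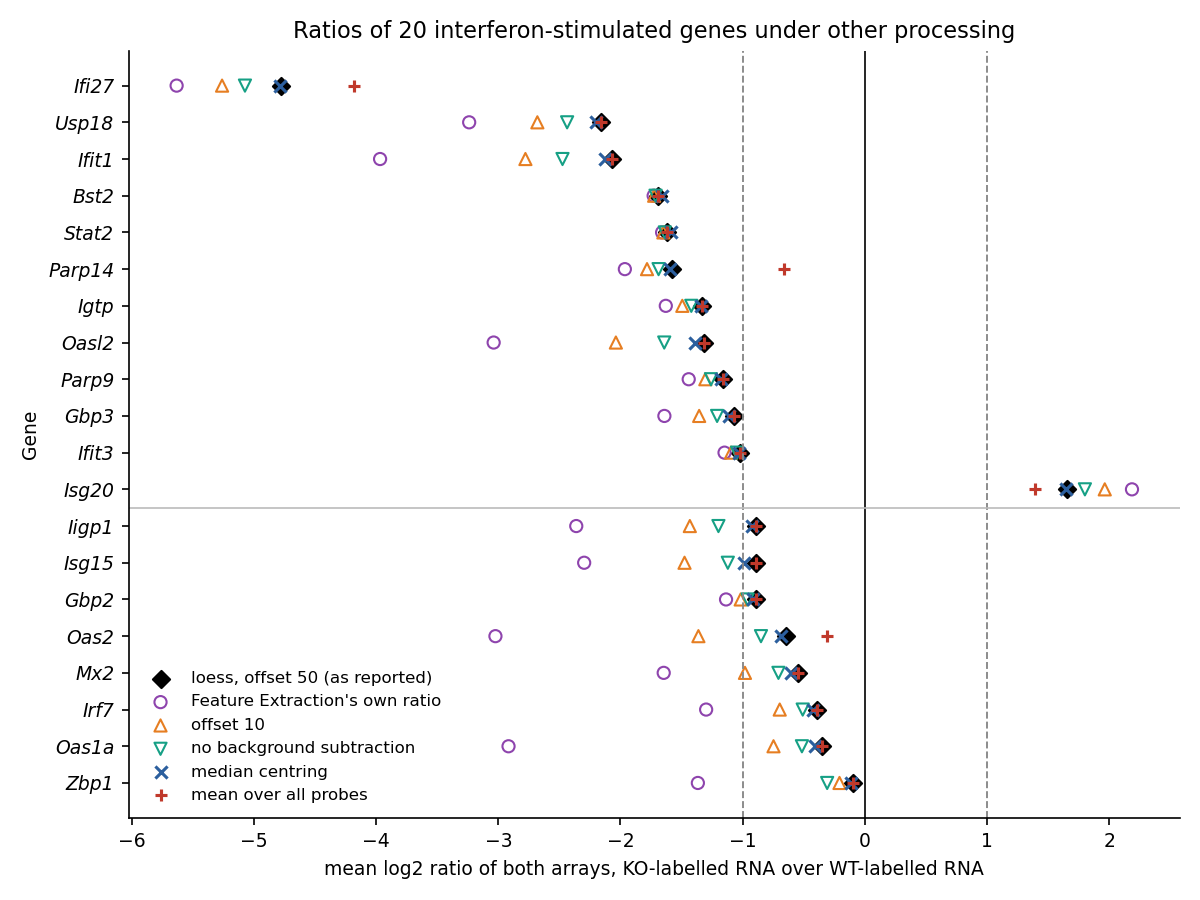
The mean log2 ratio of both arrays (x axis) is drawn under 6 ways of processing for the 12 called members (above the grey line) and the 8 members called only by the scanner software's own ratio or another alternative (below it). Black diamonds are the reported values, and dashed lines mark 2-fold. The purple circles of dim genes such as Ifit1, Oasl2, Oas2 and Oas1a lie well left of the diamonds, while Bst2, Stat2 and Ifit3 hardly move.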

How the data were processed

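The study's 2-colour Agilent arrays were read with Agilent Feature Extraction 10.5.1.1, per the labels. The authors deposited each spot's mean signal and median background as intensity in arbitrary units, and the software's log10 ratio (red over green), background-corrected and dye-normalised. A further table deposited by the authors holds log2 ratios, which matched KO over WT from the processed signals on both arrays (r of 0.99998 and 0.99999 over 41174 probes). Its centring is that of the software, and its columns have medians of -0.0177 and 0.0367.

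For this report limma 3.58.1 (R 4.3.3) corrected the background by normexp with an offset of 50. Ratios were normalised by loess within each array, and averaged over spots of a probe. Control spots (1639) were left out, and the other 43379 spots held 41174 probes. Outlier-flagged spots among them (390 and 378) were also left out, after which 40875 probes had a value on both arrays. Of the spots kept, 0 were saturated. The sign of the array with KO in Cy3 was turned. Levels are loess and Aquantile channel values. The offset pulls dim ratios towards 0. Median raw signals were 95.1 and 57.6 for KO and 59.6 and 96.6 for WT. The call and the brightest-probe rule stand in the report; a probe with several spots needed the flag in a share of 0.5. Python 3.11.15, pandas 2.3.3, numpy 2.4.6 and matplotlib 3.10.9 were also used. The background, loess and 2-fold steps were tested on simulated data with changes well beyond 2-fold. The background flag, the averaging of spots and the choice of the brightest probe were not part of that test.

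The members and all lists were chosen with earlier results of these data known. Every member was to be accounted for, with full values for called members, the nearest uncalled ones and at most 6 called genes of each list; other named genes were picked after their values were seen. Gene names are the arrays', with mm8 coordinates; exon positions were not analysed here. Reference tables (GRCm38.p6) served for names and promoters only, and motifs were searched in any start of a gene. Alternatives were the software's ratio, the deposited table, median centring, offset 10, no background subtraction, the mean over probes, genes well above background, each array alone and the methods' t-test. One gene of the companion lists is not reported here by name.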

Additional observations from a re-analysis of the deposited data

How the results depend on the processing

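The number of members called lower was 11 as reported, 19 both with the ratio of Feature Extraction and with the log2 table the authors deposited, 4 with median centring, and 0 by the methods' t-test after Benjamini-Hochberg adjustment, under which 0 members were higher. The 8 genes gained with the software's ratio were Gbp2, Iigp1, Irf7, Isg15, Mx2, Oas1a, Oas2 and Zbp1. Median centring lost Bst2, Gbp3, Ifit3, Igtp, Parp14, Parp9 and Stat2, whose means over both arrays moved by less than the SD between arrays while the array with KO in Cy5 alone fell short of 2-fold. Counts were 15 with offset 10, 13 with no background subtraction, 10 with the mean over all probes (Parp14 lost) and 11 with either array alone. Isg20 was higher in all of these but the adjusted t-test. The members' median was -1.14 by either the software's ratio or the deposited table, -0.70 with offset 10 and -0.60 over genes well above background. The further interferon-stimulated genes had 4 called lower by the software's ratio and by the deposited table, 2 with offset 10, 1 with no background subtraction and between 0 and 1 with a single array, in place of 0. Of them 1 was higher with median centring, 3 by the methods' t-test and 0 after adjustment, in place of 5. Over all genes 866 were lower and 941 higher by the software's ratio and by the deposited table, 138 and 250 with median centring (64.4% of calls higher, against 53.1% as reported), and 0 and 0 by the t-test after adjustment. The adjusted t-test sees only hybridisation error in 2 arrays. Of 296 single-member values recomputed, 207 moved by less than the SD between arrays and 89 by more; 19 had the opposite sign, all in members that were not called. No paired analysis was possible because the samples of a genotype count as 1 replicate. Signal over background leaves the size of the ratio unsettled for Oas1a, Oas2 and Zbp1, and gives no ratio that can be read for Oas1g, Oas3, Oasl1 and Mx1.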
